A study of Arabidopsis thaliana with 12 samples.

Results

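Of 34133 gene identifiers measured in first leaves of Arabidopsis thaliana, 42 were high in both of the accessions Aa-0 and Per-1 and low in the reference accession Col-0. A gene was a member when its lowest value over the 2 Aa-0 and 2 Per-1 libraries was at least 3 FPKM and at least 3 times the highest of the 4 Col-0 libraries. FPKM counts sequenced fragments, scaled to transcript length and to library size. Before 3 identifiers were set aside by name, 45 met the rule. In the annotation, 28 of the 42 were protein-coding genes, 11 were long non-coding RNAs (lncRNAs), 2 were transcribed pseudogenes and 1, AT5G28626.1, was not found. The parental values chose these genes, so the difference from Col-0 is a description here and was not tested.

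RNA came from the first leaves of 14-day-old plants, grown on Murashige and Skoog plates with 1% sucrose. The 5 groups were 3 inbred accessions, namely Col-0 with 4 libraries, Aa-0 with 2 and Per-1 with 2, and 2 F1 crosses of Col-0, one to Aa-0 (Col-0×Aa-0, 2) and the other to Per-1 (Col-0×Per-1, 2), with no treatment and no transgene in the labels. The labels do not say which parent was the mother, nor whether replicates came from separate plants, so p-values measure only the spread between these libraries, which may be technical. Ler-1 and duplicates appear in the series description, whereas the labels of the samples give Per-1 and 4 libraries of Col-0, and groups were taken from the labels. The library kit does not mark the strand of origin.

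Leaf identity and library differences were checked on all 12 libraries. The summed level of 7 leaf mesophyll markers was between 30540 and 56440 FPKM in every library, that of 7 root markers was at most 0.89 and that of 4 shoot meristem markers at most 0.08. Between 20772 and 21781 identifiers were above 0 per library. Absolute depth is unknown. Depth relative to Col-0 replicate 1 was inferred from the most common ratio between low FPKM values, not from read counts. This estimate was lowest in Col-0×Per-1 replicate 2, at 0.642, and highest in Col-0 replicate 4, at 1.133. It is rough, as 18 of 170 low genes in the former and 37 of 223 in the latter were at that ratio. The Col-0 libraries fell into pairs: RBCS1A (AT1G67090), which encodes a Rubisco small subunit, had the value 0 in replicates 1 and 2, against 19509 FPKM in replicate 3 and 19500 FPKM in replicate 4. A listed value of 0 may therefore not mean that a gene made no RNA. With replicates 1 and 2 as the only Col-0 libraries the rule gave 72 identifiers, and with replicates 3 and 4 it gave 55, both of which included all 42 members.

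Accessions are wild-collected inbred lines that differ in sequence, in gene copies and in the RNA each locus makes. In an F1 hybrid both parental copies of a locus share the same nucleus, so a locus at which each copy keeps its parental output gives a level midway between the parents, the mid-parent. Many plant loci also carry a transcript on the opposite strand, a natural antisense transcript, and some of these are lncRNAs with a role in silencing or activating their partner.

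The 42 genes fell into separate kinds by what was annotated opposite them. In 16, at least 20% of the exon length lay under exons of a gene on the other strand (27.2% or more in each). In 5 the share was 12.8% or less, and in 20 there was none. All 11 lncRNAs were among the 16. Of 31416 identifiers found in the reference, 21.3% had any antisense exon overlap and 6.95% a large one. Among the 11684 of them at 3 FPKM or more in every Aa-0 and Per-1 library these shares were 29.0% and 6.67%, against 51.2% and 39.0% of the 41 members found. lncRNAs were 0.325% of those 11684 and 26.8% of the members. The 94 identifiers found that were high in Col-0 by the reverse rule also held many such genes, with a large overlap in 29.8% and 17.0% lncRNAs.

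Short stretches of 4 such overlaps show what the antisense pairs share. They were read from the TAIR10.1 genome, which is of Col-0, after members were matched to it by locus identifier. The first 3 are the start of a coding region that lies wholly inside an exon of the opposite gene, with the start codon in capitals. The fourth is on the strand of the lncRNA AT3G01202, with a coding exon of its partner RP2 in capitals and an intron of RP2 in lower case. In a library without strand, a read from bases in exons of both genes could come from either. In the fourth stretch these are the bases in capitals.
HYR1, chr3:7667099-7667188, plus strand, inside an exon of AT3G21755: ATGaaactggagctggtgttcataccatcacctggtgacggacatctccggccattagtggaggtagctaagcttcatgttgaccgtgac
UGT85A4, chr1:29452134-29452223, minus strand, inside an exon of AT1G78265: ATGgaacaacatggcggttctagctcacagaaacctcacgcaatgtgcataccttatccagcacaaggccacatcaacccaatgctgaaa
CDA1, chr2:8471414-8471503, minus strand, inside an exon of AT2G19572: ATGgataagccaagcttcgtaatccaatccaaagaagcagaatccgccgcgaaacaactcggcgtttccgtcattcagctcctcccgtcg
AT3G01202, chr3:69888-69977, plus strand, over an exon and intron of RP2: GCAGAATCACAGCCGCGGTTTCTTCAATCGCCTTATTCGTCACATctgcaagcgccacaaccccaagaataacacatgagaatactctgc

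The highest mean over both accessions was that of AT2G35810, annotated as a ureidoglycolate hydrolase, an enzyme class of purine breakdown. AT2G35810 was at 11.48, 13.74, 12.03 and 11.45 FPKM in Col-0, 65.29 and 61.39 for Aa-0, and 68.47 and 75.91 for Per-1. In the hybrids it was at 36.05 and 37.88 for Col-0×Aa-0 and at 44.34 and 44.05 for Col-0×Per-1, so that each hybrid library lay between those of its parents. PCR1 (AT1G14880), a plasma membrane protein named for cadmium resistance, was at 0.06, 0.17, 0.74 and 0.49 FPKM in Col-0, 19.27 and 21.38 for Aa-0, and 66.3 and 87 for Per-1. It was the member with the highest ratio of Per-1 to Aa-0, 3.77, while the lowest was that of the aspartyl protease gene AT1G62290, 0.249. Over the 42 genes the Aa-0 libraries were both above the Per-1 libraries in 12, both below in 15 and overlapping in 15. That is 28.6% and 35.7% of the members, where both Aa-0 libraries were above both Per-1 libraries in 32.1% of the 17203 genes with at least 1 FPKM in 2 or more libraries, and below in 23.3%.

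Several members were close to silent in Col-0. AT5G04380, which encodes a methyltransferase that uses S-adenosyl methionine, was at 0.04, 0, 0.04 and 0 FPKM in Col-0, 24.81 and 22.14 for Aa-0, and 21.99 and 30.22 for Per-1. With Col-0 taken as at least 0.1 FPKM, its lowest accession library was 220 times the highest Col-0 library, the largest ratio of the 42. AT4G07868, an uncharacterised protein, was listed at 0 in every Col-0 library, at 19.95 and 21.84 FPKM for Aa-0 and at 10.89 and 11.18 for Per-1. AT3G61030, a protein with a calcium-dependent lipid-binding domain, was also listed at 0 in every Col-0 library, at 6.78 and 6.33 FPKM for Aa-0 and at 10.6 and 12.59 for Per-1. On the same floor, the ratios of the other near-silent genes were 109 for AT4G07868, 70 for AT1G63540, a hydroxyproline-rich glycoprotein, and 63.3 for AT3G61030. They were 60.5 for AT5G24240, a phosphatidylinositol 4-kinase gamma-like protein, 35.8 for the pseudogene CYP76C8P (AT3G60955) and 28.3 for the lncRNA AT4G37553. PCR1 followed at 26.0, the dehydrogenase AT1G80555 at 21.8 and the defensin-like pseudogene AT2G16367 at 16.6.

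At the edge of the rule, the members just inside were the lncRNA AT3G01202 at a ratio of 3.07, UGT85A4 at 3.09 and the lncRNA AT5G64572 at 3.16. Just outside lay AIG1 (AT1G33960) at 2.95, AT1G80570 at 2.89 and the cytochrome P450 gene CYP71B18 (AT3G26165) at 2.89.

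**Figure D1:**
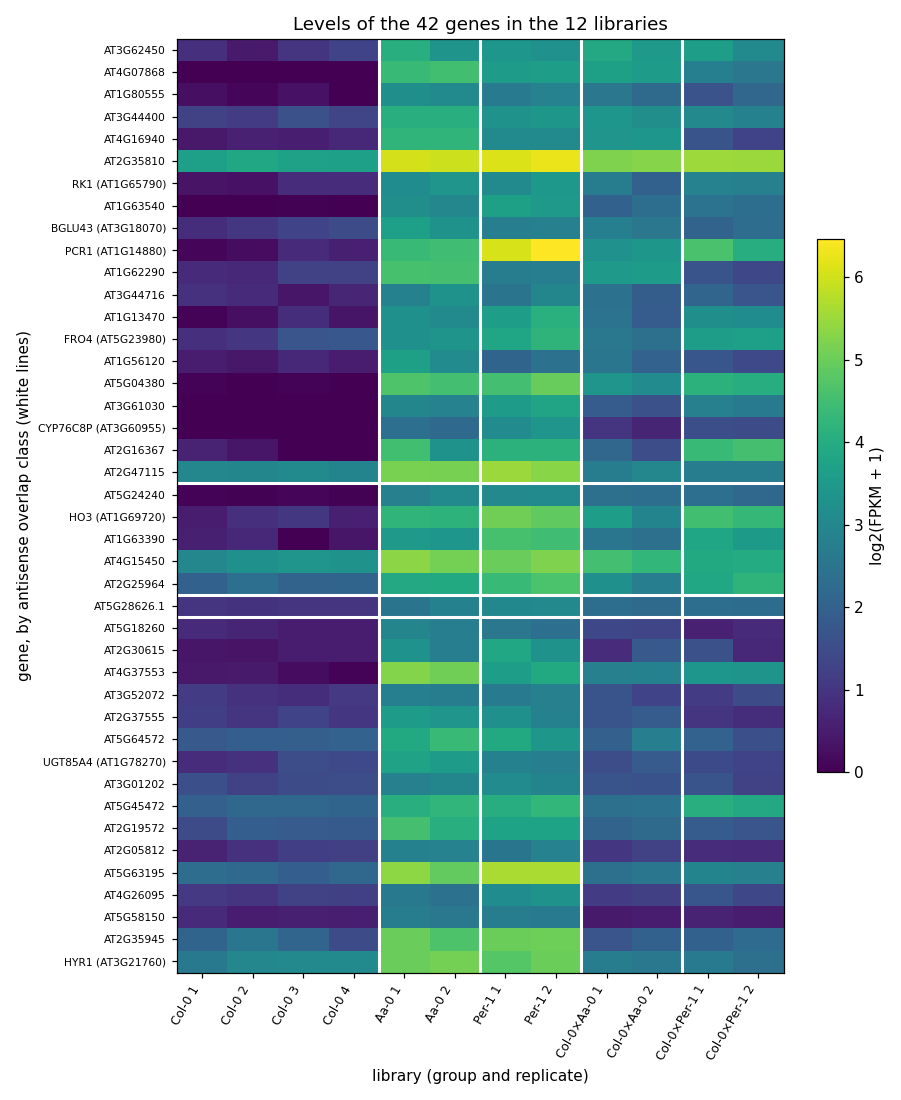
Levels of the 42 genes (rows) in the 12 libraries (columns), with colour giving log2(FPKM + 1) from 0 to the highest value. Genes are grouped by antisense overlap from top to bottom (none, small, not in the reference, large), and white lines part the groups. In the lowest block, the 16 genes with a large overlap, most hybrid columns look like the Col-0 columns, apart from AT4G37553 in both hybrids and AT5G45472 in Col-0×Per-1. In the upper blocks most hybrid columns lie between Col-0 and the accession.

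Of the 11779 identifiers at 3 FPKM or more in every Aa-0 and Per-1 library, the 42 members were 0.357%. Of 249 identifiers annotated as NLR or TIR immune proteins, which sense pathogen molecules inside the cell, 74 were at 3 FPKM or more in both accessions and 2 of those (2.70%) were members, AT3G44400 and AT4G16940, while 7 were high in Col-0 instead. AT4G16940 was at 0.36, 0.51, 0.45 and 0.64 FPKM in Col-0, 17.71 and 17.72 for Aa-0, and 7.34 and 7.42 for Per-1. AT3G44400 was at 1.36, 1.18, 2.01 and 1.53 FPKM in Col-0, 15.42 and 15.81 for Aa-0, and 8.87 and 9.74 for Per-1. Both were higher in each Aa-0 library than in each Per-1 library. The keyword list of protein kinases gave 4 members of 716 at 3 FPKM or more (0.559%). They were the S-domain receptor kinase RK1 (AT1G65790), the leucine-rich repeat kinases AT1G56120 and AT5G58150, and AT5G24240. The last is annotated as a phosphatidylinositol 4-kinase gamma-like protein, not as a protein kinase. RK1 was at 0.51 ± 0.295 FPKM (SD, n = 4) in Col-0, 8.54 ± 1.03 (n = 2) in Aa-0 and 8.56 ± 1.77 (n = 2) in Per-1. AT1G56120 was at 0.46 ± 0.135 FPKM (n = 4) in Col-0, 9.79 ± 2.92 (n = 2) in Aa-0 and 3.81 ± 0.87 (n = 2) in Per-1. Leucine-rich repeat and receptor-like proteins, a list that shares genes with both of these, gave 5 members of 191 (2.62%), the fifth being the F-box protein AT2G30615.

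HO3 (AT1G69720), a plastid heme oxygenase of the kind that makes the precursor of the phytochrome chromophore, was at 0.42, 0.85, 1.06 and 0.48 FPKM in Col-0, 17.59 and 17.04 for Aa-0, and 32.42 and 28.67 for Per-1. AT1G63390, related to the flavin monooxygenases that oxidise glucosinolate side chains, was at 0.48, 0.65, 0 and 0.32 FPKM in Col-0, 10.17 and 9.45 for Aa-0, and 23.1 and 21.24 for Per-1. For both, each Per-1 library was above each Aa-0 library. FRO4 (AT5G23980), a metal reductase of the plasma membrane, was at 1.62 ± 0.784 FPKM (SD, n = 4) in Col-0, 8.80 ± 0.544 (n = 2) in Aa-0 and 15.3 ± 3.05 (n = 2) in Per-1. BGLU43 (AT3G18070), a beta-glucosidase, was at 1.27 ± 0.44 FPKM (n = 4), 10.2 ± 1.87 (n = 2) and 5.86 ± 0.163 (n = 2) in the same order. The senescence- and dehydration-associated protein gene AT4G15450 was at 8.34 ± 1.02 FPKM (n = 4) in Col-0, 36.5 ± 4.03 (n = 2) in Aa-0 and 33.4 ± 3.54 (n = 2) in Per-1. UDP-glycosyltransferases, which attach sugars to small molecules, gave 2 members of 80 (2.5%), HYR1 and UGT85A4, and both lay opposite a lncRNA. Of 651 transcription factors and 351 transporters at 3 FPKM or more in both accessions 0 were members, which is near the share of 0.357% over all identifiers at that level. The lists for salicylic acid response (20 genes), glucosinolate metabolism (21) and flowering under FLC (10) also held 0 members, where that share of lists this short is under 1 gene.

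Close relatives of the 28 members with a protein were compared with them. A paralogue of at least 40% identity was found for 22 of them, and for 11 it lay within 10 genes of the member. In 2 of the 22 the closest paralogue was higher in every accession library than in every Col-0 library, in 5 it was lower and in 15 the libraries overlapped. These are 9.09% and 22.7% of the paralogues, against 4.34% and 17.1% of the genes tested. The counts are small and the shares were not tested against each other. AT2G35830, 94.1% identical to AT2G35810, went the other way, at 136 ± 24.2 FPKM (SD, n = 4) in Col-0, 71.1 ± 10.4 (n = 2) in Aa-0 and 86.8 ± 12.5 (n = 2) in Per-1. RK2, 85.7% identical to RK1, was likewise lower, at 29.2 ± 6.31 FPKM (n = 4) in Col-0, 17.3 ± 2.29 (n = 2) in Aa-0 and 18.2 ± 3.49 (n = 2) in Per-1. RPP1, 70.3% identical to AT3G44400 and a receptor for a downy mildew effector, was at 29.9 ± 4.76 FPKM (n = 4), 17.4 ± 1.03 (n = 2) and 8.60 ± 1.24 (n = 2). These 3 paralogues were lower in the accessions, where the member was high. How fragments were divided between near-identical copies is not given in the sources used here, so the levels of such pairs are uncertain.

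The paralogues that were high together with a member were AT3G60950 and AT4G16960. AT3G60950, 84.4% identical to AT3G61030, was at 0.0325 ± 0.0299 FPKM (SD, n = 4) in Col-0, 2.90 ± 0.0919 (n = 2) in Aa-0 and 5.05 ± 0.481 (n = 2) in Per-1. It lies 129 bases from the member CYP76C8P on the opposite strand. AT4G16960, 90.6% identical to AT4G16940, was at 2.95 ± 0.502 FPKM (n = 4) in Col-0, 8.0 ± 1.32 (n = 2) in Aa-0 and 10.9 ± 1.04 (n = 2) in Per-1. AT4G16950, the nearest protein-coding gene to AT4G16940, 314 bases away and named RPP5 in the annotation, was lower in the accessions, at 58.6 ± 7.68 FPKM (n = 4), 20.2 ± 3.96 (n = 2) and 18.0 ± 1.64 (n = 2). For other pairs the paralogue did not separate the groups. TED4, 82.2% identical to HO3, was at 89.7 ± 6.2, 89 ± 5.77 and 86.2 ± 1.91 FPKM in Col-0, Aa-0 and Per-1. FRO5, 91.6% identical to FRO4, was at most 0.03 FPKM in every library. The most alike pair was AT1G63390 and AT1G62600, 98.8% identical, where AT1G62600 was at 15.4 ± 1.25 FPKM (n = 4) in Col-0, 8.96 ± 1.69 (n = 2) in Aa-0 and 18.9 ± 0.134 (n = 2) in Per-1. AT1G63390 encodes a protein of only 168 residues, and the match covered 95.8% of it. Among the members themselves no pair reached 40% identity, and no 2 members lay within 10 genes of each other.

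Where each hybrid lay between its parents differed between the kinds of gene, and this difference was not tested. Position was set to 0% at the Col-0 mean and 100% at the mean of the other parent, on the linear FPKM scale. The 25 genes with little or no antisense overlap had a median position of 44% in Col-0×Aa-0 and 50.4% in Col-0×Per-1. Of these, 21 and 17 lay between 25% and 75%. The 16 genes with a large overlap had a median of 7.90% in Col-0×Aa-0, where all 16 were under 25%, and of 1.05% in Col-0×Per-1, where 14 were. For comparison, 39 genes high in Aa-0 alone had a median of 44% in Col-0×Aa-0, and 62 genes high in Per-1 alone had one of 31.8% in Col-0×Per-1. Under 25% lay 3 of the 39 and 26 of the 62, which were chosen without regard to overlap. The limit of 20% that separates the kinds was set after the overlaps had been seen. Limits of 10%, 50% and 80% left the median of the genes above them between 5.97% and 8.26% in Col-0×Aa-0 and between 0.439% and 1.63% in Col-0×Per-1. In leaf RNA from whole organs, fewer cells that express a gene and less RNA per cell cannot be told apart.

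**Figure D2:**
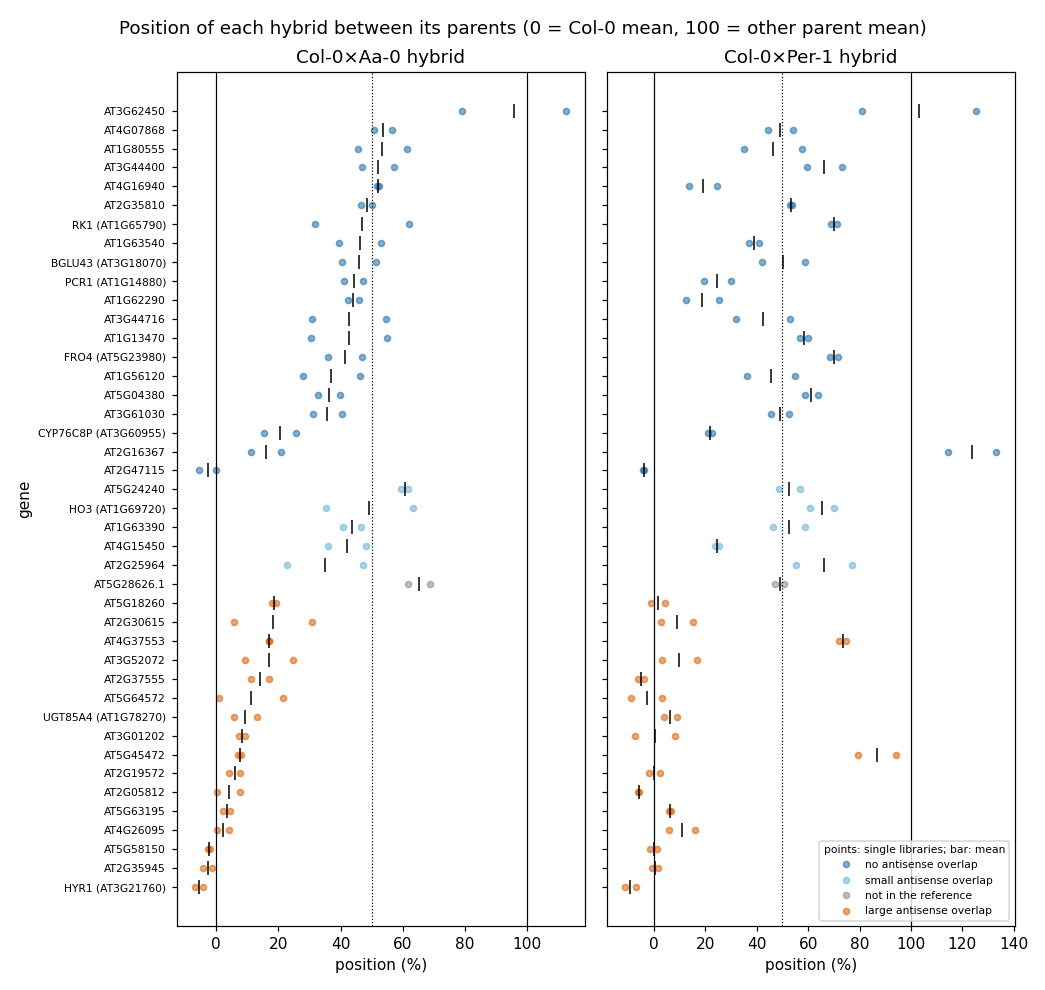
Position of each hybrid between its parents for the 42 genes (vertical axis), in percent, where 0 is the Col-0 mean and 100 the mean of the other parent; points are single libraries, bars are means and colours mark the antisense overlap. The 16 genes with a large overlap (orange) sit under 25% in Col-0×Aa-0, and 14 of them do so in Col-0×Per-1. Most others sit around the dotted mid-parent line at 50%.

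**Figure D3:**
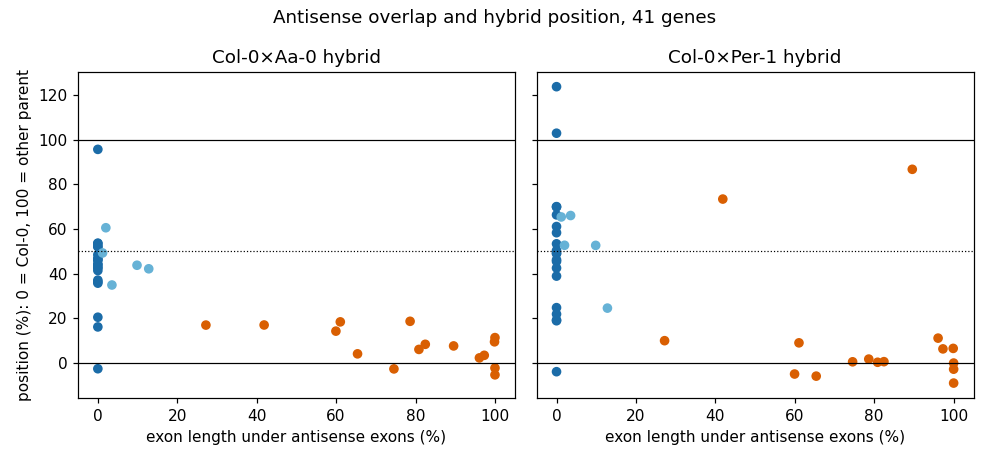
Percent of exon length under antisense exons (horizontal axis) against the mean hybrid position in percent (vertical axis) for the 41 genes found in the reference; 1 point is 1 gene. Dark blue, light blue and orange mark genes with no, a small and a large overlap. Every gene above the 20% limit is under 25% in the left panel, and AT4G37553 and AT5G45472 are the orange points far above the rest in the right panel.

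The mid-parent rests on the parental libraries that chose the members, and the hybrid libraries had no part in that choice. The rule set the parents of every member at least 3-fold apart, unlike those of most genes. The shares of all genes printed beside the counts are therefore no measure for the members. Tested against it, 8 of the 42 members were lower in Col-0×Aa-0 and 0 were higher, where 0.11% and 0.128% of the 17203 genes tested were called lower and higher by limma (Benjamini-Hochberg adjusted p, threshold 0.05). The median log2 difference was -0.34 over the members and -0.05 over all genes. In Col-0×Per-1, 16 members were lower and 1 was higher, against 2.2% and 0.366% of all genes. The median there was -0.22 over the members and -0.14 over all genes. The higher one was AT5G45472, by log2 0.54 ± 0.12 (adjusted p = 0.049, limma), a call lost when any of 10 of the 12 libraries was left out. With a mid-parent taken from the mean of log2 values, which lies lower, 16 members were above it in Col-0×Per-1. Of the genes lower than the mid-parent, 7 in Col-0×Aa-0 and 13 for Col-0×Per-1 were among the 16 with a large overlap, and none was among the 5 with a small one. The remaining ones had no antisense exon overlap by coordinates, namely AT2G47115 in both hybrids, and CYP76C8P and AT4G16940 in Col-0×Per-1. The annotation's note on CYP76C8P does mention an overlap with a gene on the other strand, but its nearest such neighbour, AT3G60950, lies 129 bases away. These counts rest on few hybrid libraries: they were 3 without either Col-0×Aa-0 library and 5 without Aa-0 replicate 1 in the first hybrid. In the second they were 9 without Per-1 replicate 1, 9 without Col-0×Per-1 replicate 1 and 6 without replicate 2.

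The rule had used the libraries of the parents, so comparisons with them are a description and the shares of all genes printed beside them are no measure for the members. By the same test 27 members were higher than Col-0 in Col-0×Aa-0, where 1.13% of all genes were, and 28 in Col-0×Per-1, where 2.66% were. Of the 20 genes without overlap 19 and 18 were above Col-0, and all 5 with a small overlap were in both hybrids. Of the 16 with a large overlap only 2 and 4 were. Below the other parent lay 32 members in Col-0×Aa-0 (0.872% of all genes) and 28 in Col-0×Per-1 (2.34%). That count held 16 of 16 and 14 of 16 of the genes with a large overlap, against 12 and 11 of the 20 with none.

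The glycosyltransferase gene HYR1 (AT3G21760) and the lncRNA opposite it, AT3G21755, show the pattern in the levels. HYR1 was at 5.13, 6.99, 7.29 and 7.49 FPKM in Col-0, 30.38 and 33.75 for Aa-0, and 26.2 and 31.25 for Per-1. In the hybrids it was at 5.67 and 5.02 for Col-0×Aa-0 and at 5.17 and 4.26 for Col-0×Per-1, within or below the Col-0 range and far from either accession. AT3G21755 was at 13.27, 14.15, 16.68 and 17.04 FPKM in Col-0, 0.11 and 0.19 for Aa-0, 0.18 and 0.34 for Per-1, 11.99 and 14.02 for Col-0×Aa-0, and 14.04 and 11.66 for Col-0×Per-1. So the lncRNA was near 0 only where HYR1 was high. By limma, HYR1 was lower than its mid-parent by log2 -1.68 ± 0.16 (SE, adjusted p = 0.00286) in Col-0×Aa-0 and by -1.71 ± 0.16 (adjusted p = 0.000701) in Col-0×Per-1. The sum of both genes' levels weighted by length was 0.91 of the Col-0 sum in Aa-0, 0.83 in Per-1, 0.84 in Col-0×Aa-0 and 0.81 for Col-0×Per-1. Lengths were those of all annotated exons in TAIR10.1, which may differ from those behind the FPKM, so such sums are rough. Since the kit does not mark strand, reads from HYR1 and AT3G21755 cannot be told apart where they overlap, which is the whole exon length of HYR1.

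In most pairs the partner was also lower in the accessions, in some by much less than AT3G21755. Of the 16 main partners, those with the longest shared exon, 12 were lower in every accession library than in every Col-0 library, 0 were higher and 4 overlapped. Over the 17203 genes tested, 17.1% were lower in this way and 4.34% higher. In the same 12 every hybrid library was above every accession library, as in 3.39% of the genes tested. Partner and member share reads in libraries without strand, and the members were chosen on the same parental libraries. The shares of all genes are therefore no measure for the partners. The partners were 13 protein-coding genes and 3 lncRNAs, and 4 of them met the reverse of the rule that chose the members, AT1G78265, AT3G21755, AT3G52070 and AT5G18255. The length-weighted sum of a pair was a median of 1.45 times its Col-0 value in Aa-0 (range 0.736 to 4.08), 1.30 in Per-1 (0.778 to 3.41), 1.12 in Col-0×Aa-0 (0.687 to 1.59) and 1.03 in Col-0×Per-1 (0.668 to 3.47). These sums are as rough as that of HYR1, and only the main partner of each member entered them. The other glycosyltransferase, UGT85A4 (AT1G78270), was at 1.30 ± 0.557 FPKM (SD, n = 4) in Col-0, 11.5 ± 1.07 (n = 2) in Aa-0, 5.97 ± 0.226 (n = 2) in Per-1, and 2.26 ± 0.537 and 1.60 ± 0.17 (n = 2 each) in the hybrids with Aa-0 and Per-1. Its antisense lncRNA AT1G78265 was at 3.81 ± 0.653 FPKM (n = 4), 0.035 ± 0.00707 (n = 2), 0.55 ± 0.184 (n = 2), 5.42 ± 0.813 (n = 2) and 5.30 ± 0.424 (n = 2) in the same order. UGT85A4 did not pass against the mid-parent, with adjusted p = 0.0889 and 0.07 by limma. The RING-type protein gene AT5G18260 lay opposite AT5G18255, which was at 4.53 ± 0.282 FPKM (n = 4) in Col-0, 0.18 ± 0.0566 (n = 2) in Aa-0 and 0.695 ± 0.29 (n = 2) in Per-1.

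In most pairs the member was the lncRNA and the partner a known protein-coding gene. CDA1 (AT2G19570), a cytidine deaminase, was at 2.12, 3.24, 3.27 and 2.51 FPKM in Col-0 and was listed at 0 in all 4 accession libraries. Whether sequence differences from the Col-0 genome, or missing copies, lowered accession values of this kind was not tested. In the hybrids CDA1 was at 2.92 and 3.83 FPKM with Aa-0 and at 2.73 and 3.02 with Per-1, within or above the Col-0 range. The lncRNA opposite CDA1, AT2G19572, was at 1.78, 2.8, 2.63 and 2.53 FPKM in Col-0, 22.49 and 15.72 for Aa-0, 12.37 and 12.45 for Per-1, 3.14 and 3.72 for Col-0×Aa-0, and 2.66 and 2.25 for Col-0×Per-1. AT2G19572 was lower than its mid-parent in both hybrids, by log2 -1.39 ± 0.18 (limma adjusted p = 0.0121) and -1.29 ± 0.17 (adjusted p = 0.00769). RPS2 (AT4G26090), an immune receptor that detects a bacterial effector, was at 1.30 ± 0.331 FPKM (SD, n = 4) in Col-0, 0.14 ± 0.0141 (n = 2) in Aa-0 and 0.355 ± 0.0919 (n = 2) in Per-1. The lncRNA AT4G26095, which shares 96.1% of its exon length with RPS2, was at 1.19 ± 0.196, 4.77 ± 0.481 and 8.29 ± 0.643 FPKM in the same groups. The armadillo repeat gene AT2G05810 was at 3.07 ± 1.21 FPKM (n = 4) in Col-0 against 0.02 in both Aa-0 libraries and 0.04 in both Per-1 libraries, opposite the lncRNA AT2G05812. The phosphatase gene AT3G52070 was at 9.95 ± 0.991 FPKM (n = 4) in Col-0, 0.455 ± 0.106 (n = 2) in Aa-0 and 0.62 ± 0.127 (n = 2) in Per-1, opposite the lncRNA AT3G52072.

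Other coding partners were lower in the accessions by less. BLH1, a homeodomain transcription factor, was at 35.1 ± 13.1 FPKM (SD, n = 4) in Col-0, 15.9 ± 0.332 (n = 2) in Aa-0 and 16.5 ± 0.0707 (n = 2) in Per-1. Its antisense lncRNA AT2G35945 was at 3.27, 4.77, 3.31 and 1.85 FPKM in Col-0, 30.39 and 24.1 for Aa-0, 30.98 and 31.98 for Per-1, 2.26 and 3.01 for Col-0×Aa-0, and 3.05 and 3.78 for Col-0×Per-1. AT2G35945 was the member farthest below the mid-parent, by log2 -2.16 ± 0.26 (limma adjusted p = 0.00773) in Col-0×Aa-0 and -2.06 ± 0.26 (adjusted p = 0.00545) in Col-0×Per-1. AGD7, which regulates a vesicle-forming GTPase, was at 17.2 ± 1.89, 9.09 ± 2.14 and 8.40 ± 0.714 FPKM in Col-0, Aa-0 and Per-1, opposite AT2G37555. RP2, which regulates the enzyme pyruvate orthophosphate dikinase, was at 9.80 ± 0.875, 4.17 ± 0.997 and 5.57 ± 0.127 FPKM, opposite AT3G01202. The lncRNA AT5G63195 was at 3.96, 3.61, 2.79 and 3.49 FPKM in Col-0, 40.18 and 29.19 for Aa-0, 48.47 and 49.15 for Per-1, 4.19 and 4.81 for Col-0×Aa-0, and 6.48 and 6.07 for Col-0×Per-1. Its partner AT5G63190, an MA3-domain protein, was at 35.5 ± 5.09 FPKM (n = 4) in Col-0, 23.7 ± 9.68 (n = 2) in Aa-0 and 29.7 ± 2.23 (n = 2) in Per-1. AT5G63195 was lower than the mid-parent by log2 -1.85 ± 0.16 (limma adjusted p = 0.00157) and -1.90 ± 0.16 (adjusted p = 0.000429).

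The 4 partners that did not separate the groups were PHOT2, XYL4, AT2G30600 and AT4G37560. PHOT2, a blue-light receptor, was at 61.0 ± 11.5 FPKM (SD, n = 4) in Col-0, 59.6 ± 1.09 (n = 2) in Aa-0 and 65.1 ± 8.4 (n = 2) in Per-1. The receptor kinase gene AT5G58150, whose whole exon length lies under exons of PHOT2, was at 0.7, 0.4, 0.48 and 0.45 FPKM in Col-0, 5.57 and 4.97 for Aa-0, 5.69 and 5.19 for Per-1, 0.38 and 0.41 for Col-0×Aa-0, and 0.57 and 0.43 for Col-0×Per-1. AT5G58150 was therefore at the Col-0 level in both hybrids, and it fell below the mid-parent by log2 -1.48 ± 0.12 (limma adjusted p = 0.00132) and -1.41 ± 0.12 (adjusted p = 0.000423). The SD of PHOT2 in Col-0 was larger than any level of AT5G58150, so a change of that size in PHOT2 could not be seen. The overlap held 0 coding bases of PHOT2. XYL4, a beta-xylosidase, was at 7.70 ± 0.508 FPKM (n = 4) in Col-0, 7.85 ± 2.22 (n = 2) in Aa-0 and 4.43 ± 1.19 (n = 2) in Per-1, opposite AT5G64572. AT2G30600, a BTB-domain protein opposite the F-box gene AT2G30615, was at 35.1 ± 6.37, 43.2 ± 4.02 and 42.7 ± 15.5 FPKM.

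**Figure D4:**
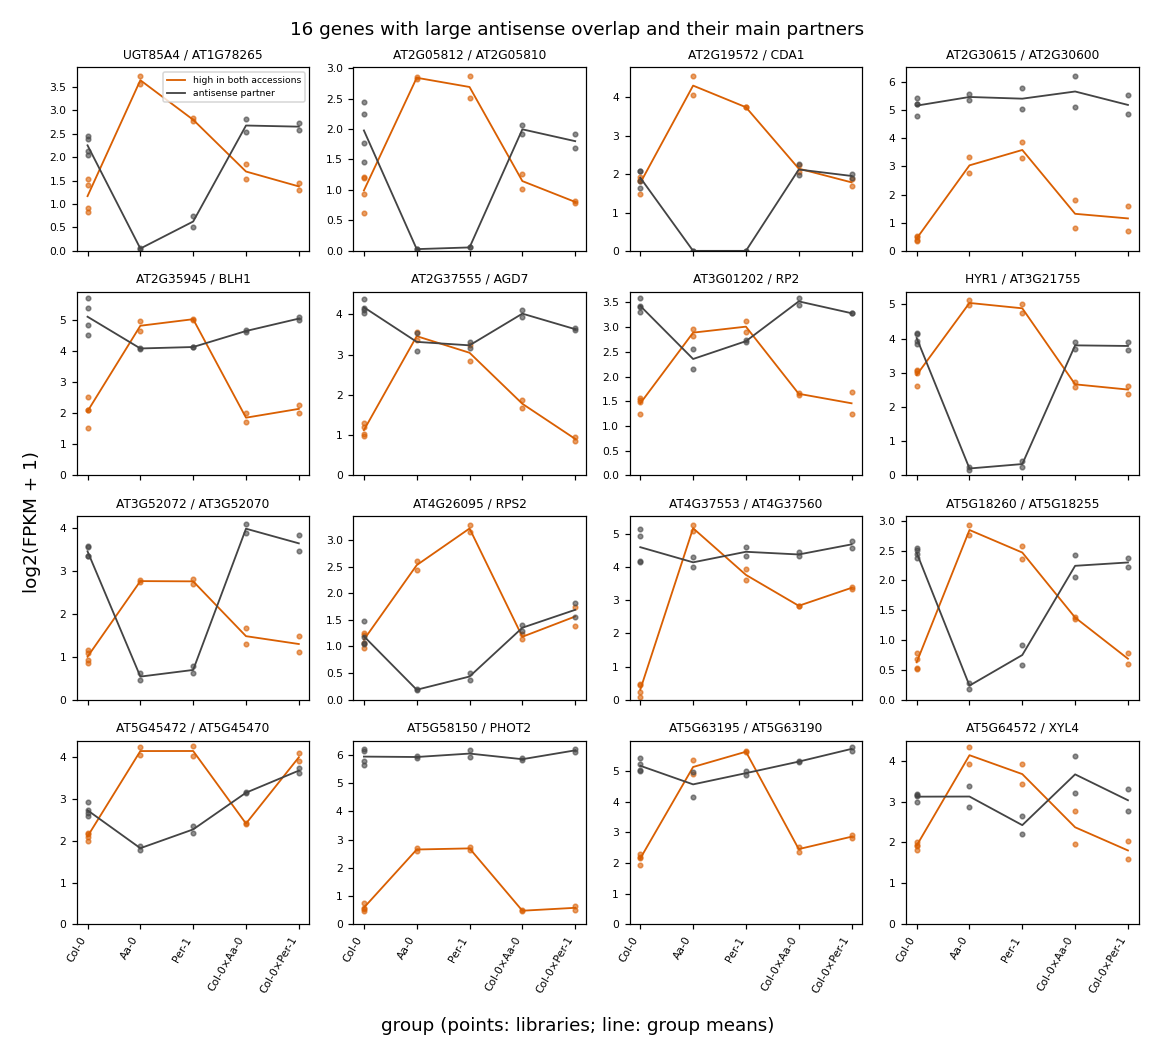
Levels of the 16 genes with a large antisense overlap (orange) and of their main partners (dark grey) as log2(FPKM + 1) over the 5 groups; points are libraries, lines join group means, and each panel has its own vertical scale. In the HYR1 panel the lines cross, with HYR1 high and AT3G21755 near 0 in Aa-0 and Per-1. In most panels both hybrids return to the Col-0 arrangement, and in the AT5G58150 panel the line of PHOT2 stays flat.

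A gene without an annotated overlap, AT2G47115, behaved like those with one. AT2G47115, annotated as a rolling protein, was at 6.99, 6.86, 7.55 and 6.53 FPKM in Col-0, 34.5 and 34.1 for Aa-0, 43.56 and 38.78 for Per-1, 5.51 and 6.98 for Col-0×Aa-0, and 5.5 and 5.71 for Col-0×Per-1. Its hybrid libraries were at the Col-0 level or under it, lower than the mid-parent by log2 -1.59 ± 0.11 (limma adjusted p = 0.00132) and -1.92 ± 0.12 (adjusted p = 5.82e-05). It lies 4 bases from UBQ6 (AT2G47110), a ubiquitin gene on the opposite strand, chosen for mention after its values were seen. Another neighbour, AT2G09785, is annotated as an antisense RNA on the strand of AT2G47115, 32 bases away, and has no values in these data. UBQ6 was at 57.5 ± 1.17 FPKM (SD, n = 4) in Col-0, 0.11 ± 0.0566 (n = 2) in Aa-0, 0.03 ± 0.0424 (n = 2) in Per-1, 49.2 ± 12.1 (n = 2) in Col-0×Aa-0 and 44.4 ± 4.03 (n = 2) in Col-0×Per-1. AT2G47115 and UBQ6 were thus mirrored in the same way as HYR1 and AT3G21755. The part of either neighbour in the level of AT2G47115 was not tested, nor that of sequence differences in the low UBQ6 values.

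The lncRNAs AT5G45472 and AT4G37553 departed from the Col-0 level, the former in Col-0×Per-1 and the latter in both hybrids. AT5G45472 was at 2.96, 3.49, 3.51 and 3.25 FPKM in Col-0, 15.47 and 18.02 for Aa-0, 15.33 and 18.22 for Per-1, 4.25 and 4.38 for Col-0×Aa-0, and 16 and 13.99 for Col-0×Per-1. It was thus near Col-0 in the hybrid with Aa-0, at a position of 7.53%, and near Per-1 in the hybrid with Per-1, at 86.8%, although the parents Aa-0 and Per-1 had overlapping levels. The hybrids differed by log2 1.59 ± 0.13 (limma adjusted p = 0.000163), and their deviations from the mid-parents by 1.59 ± 0.17 (adjusted p = 0.00498). The partner with the longer shared exon, AT5G45470, a transmembrane protein, was at 5.66 ± 0.682 FPKM (SD, n = 4) in Col-0, 2.54 ± 0.163 (n = 2) in Aa-0, 3.83 ± 0.417 (n = 2) in Per-1, 7.87 ± 0.0707 (n = 2) in Col-0×Aa-0 and 11.8 ± 0.643 (n = 2) in Col-0×Per-1. AT5G45470 was thus among the partners lower in the accessions, but it was highest in Col-0×Per-1, where the member was high too. AT4G37553, opposite the amidase gene AT4G37560, was at 0.37, 0.39, 0.17 and 0.05 FPKM in Col-0, 37.22 and 32.46 for Aa-0, 11.05 and 14.17 for Per-1, 6.07 and 6.13 for Col-0×Aa-0, and 9.48 and 9.17 for Col-0×Per-1. In Col-0×Aa-0 it was above Col-0 by log2 2.52 ± 0.14 (limma adjusted p = 1.15e-05). It was also below the mid-parent there, by log2 -1.38 ± 0.16 (limma adjusted p = 0.00773), but not with a mid-parent from mean log2 values, where the difference was 0.0944. In Col-0×Per-1 it was at 0.48 ± 0.16 from the mid-parent (adjusted p = 0.121). Its deviations from the mid-parents differed by log2 1.87 ± 0.23 (limma adjusted p = 0.012). These were the 2 members with such a difference, where 0.0523% of all genes had one in that direction, and 0 members had one in the other direction (0.18%). The mid-parents rest on the libraries that chose the members, so these shares are no measure for them. Leaving out Col-0×Aa-0 replicate 2 ended both calls, and leaving out Aa-0 replicate 1, Per-1 replicate 1, Col-0×Aa-0 replicate 1 or either Col-0×Per-1 library left 1.

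The hybrids themselves, none of whose libraries chose the members, differed in 13 of the 42 genes, where 2.04% of all genes did. In Col-0×Per-1 8 were higher than in Col-0×Aa-0 (0.802% of all genes) and 5 were lower (1.24%), with a median log2 difference of -0.13 over all genes. All 5 lower ones were also higher in both Aa-0 libraries than in both Per-1 libraries. The parental levels chose the members, so the shares of all genes are no measure for these counts. AT1G62290, a protease with a saposin-like domain, was at 0.75, 0.64, 1.37 and 1.43 FPKM in Col-0, 22.77 and 22.64 for Aa-0, 5.56 and 5.75 for Per-1, 10.2 and 10.96 for Col-0×Aa-0, and 2.21 and 1.62 for Col-0×Per-1. It was lower in the second hybrid by log2 -2.0 ± 0.20 (SE, limma adjusted p = 0.000552). The immune receptor gene AT4G16940 was at 9.39 and 9.53 FPKM in Col-0×Aa-0, midway between its parents, and at 2.18 and 1.44 for Col-0×Per-1. It was lower there by log2 -1.91 ± 0.14 (limma adjusted p = 8.34e-05) and was also below the Per-1 mid-parent, by -0.82 ± 0.13 (adjusted p = 0.0152). AT4G07868, at 11.8 and 10.62 FPKM in Col-0×Aa-0 and at 5.96 and 4.88 for Col-0×Per-1, differed by log2 -0.93 ± 0.11 (adjusted p = 0.00229, limma) and stood near 50% in both hybrids. AT2G37555 and AT5G18260 were the other lower ones, by log2 -0.87 ± 0.17 and -0.69 ± 0.14.

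The member with the largest rise from the first hybrid to the second was the defensin-like pseudogene AT2G16367. It was at 0.54, 0.32, 0 and 0 FPKM in Col-0, 21.51 and 8.99 for Aa-0, 16.85 and 16.86 for Per-1, 3.37 and 1.89 for Col-0×Aa-0, and 19.28 and 22.37 for Col-0×Per-1. It lay at 16.1% in the hybrid with Aa-0 and at 124% in the hybrid with Per-1, and the hybrids differed by log2 2.61 ± 0.36 (SE, limma adjusted p = 0.00419). Its deviation passed the test against neither mid-parent, with adjusted p = 0.557 and 0.0925, and its Aa-0 libraries differed more than 2-fold. AT1G63390, HO3 and AT2G25964, an uncharacterised protein, were higher in Col-0×Per-1 by log2 1.22 ± 0.21, 1.14 ± 0.24 and 1.03 ± 0.19, and each was also higher in Per-1 than in Aa-0. AT3G61030 was at 2.65 and 2.03 FPKM in Col-0×Aa-0 and at 6.07 and 5.29 for Col-0×Per-1, a difference of log2 1.00 ± 0.13 (limma adjusted p = 0.0031). This gene was also higher in Per-1 than in Aa-0. AT5G04380 was at 9.34 and 7.72 FPKM in Col-0×Aa-0 and at 16.62 and 15.3 for Col-0×Per-1, a difference of log2 0.84 ± 0.15 (limma adjusted p = 0.0209), although the Aa-0 and Per-1 libraries overlapped. CYP76C8P was higher by log2 0.68 ± 0.14 (limma adjusted p = 0.038) and was also higher in Per-1 than in Aa-0. AT5G45472, given above, was the remaining higher one. Calls that stood whichever library was left out were those of AT1G62290, AT3G61030, AT4G07868, AT4G16940 and AT5G45472. Without Col-0×Aa-0 replicate 2 or Col-0×Per-1 replicate 2 the count of higher genes was 2, and without Col-0×Per-1 replicate 1 it was 3. The count of lower genes was 3 without any 1 of the 4 hybrid libraries.

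Other genes without a large overlap illustrate the midway position. AT1G63540 was listed at 0 in 3 Col-0 libraries and at 0.02 FPKM in replicate 3. It was at 8.1 and 7 FPKM for Aa-0, 10.9 ± 1.19 (SD, n = 2) for Per-1, 2.99 and 4 for Col-0×Aa-0, and 4.48 and 4.03 for Col-0×Per-1, a position of 46.3% and 38.9%. AT5G24240 was at 4.19 and 4.05 FPKM in Col-0×Aa-0 and at 4.14 and 3.54 for Col-0×Per-1, with positions of 60.6% and 52.7%. AT2G35810 lay at 48.5% and 53.4%. PCR1, at 8.59 and 9.78 FPKM in Col-0×Aa-0 and at 23.18 and 15.25 for Col-0×Per-1, lay at 44.2% and 24.7%. It was below the Per-1 mid-parent by log2 -0.98 ± 0.26, which did not pass (limma adjusted p = 0.0748), and above it by 0.97 (adjusted p = 0.0487) with a mid-parent from mean log2 values. AT3G62450, annotated as a DNA mismatch repair protein, stood at the other end, at 0.84, 0.38, 0.97 and 1.47 FPKM in Col-0, 15.69 and 9.11 for Aa-0, 9.54 and 8.71 for Per-1, 13.84 and 9.98 for Col-0×Aa-0, and 11.19 and 7.55 for Col-0×Per-1. Its hybrids overlapped the libraries of the other parent, at 95.7% and 103%. Against the mid-parent it was at log2 0.78 ± 0.29 and 0.77 ± 0.29, which did not pass (limma adjusted p = 1 and 0.163). Over the genes without an annotated overlap the hybrids ranged from -2.70% to 95.7% in Col-0×Aa-0 and from -4.03% to 124% in Col-0×Per-1. AT5G28626.1, the identifier without annotation, was at 0.95, 0.93, 1 and 1 FPKM in Col-0, 4.62 and 6.21 for Aa-0, 7.02 and 7.18 for Per-1, 4.03 and 3.71 for Col-0×Aa-0, and 4.07 and 3.86 for Col-0×Per-1.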

How the data were processed

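The values were FPKM as deposited by the authors, 1 file per library. The authors' tools, per the submitters' processing notes, included TopHat2 (2.0.8b), TopHat without a version, Cufflinks in version 2.0.2 and, for edgeR, version 3.12.0, with TAIR10 as the genome. Which tool produced the FPKM, and what they were scaled to, is not given in the sources used here. TAIR10 is a genome of Col-0. The part of sequence differences or missing copies in the levels of Aa-0, Per-1 and the hybrids was not tested. Libraries were unstranded, made with TruSeq RNA Sample Prep V2 per the labels' protocols, and groups followed the sample labels. Absolute depth is unknown.

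For this report, limma 3.58.1 in R 4.3.3 was fitted to log2(FPKM + 1) of 17203 genes that reached 1 FPKM in 2 or more libraries. All 12 libraries entered a group-means model with 7 residual degrees of freedom and eBayes with a trend. P-values were adjusted by Benjamini-Hochberg over all of these genes and called under 0.05. All 42 members were tested. Fold changes on this scale understate the change of low genes. The mid-parent averaged the parents' fitted levels on the linear scale before log2 was taken, with delta-method standard errors. On simulated data of 17049 genes, 78% of changes of log2 1 and 98% of changes of log2 2 were recovered for Col-0×Per-1 against the mid-parent, with 13 false calls. For the difference between the hybrids' deviations 59% and 96% were recovered, with 7 false calls. In Col-0×Aa-0 no change was simulated and 0 false calls were made.

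Names, strands and exons came from the RefSeq annotation of TAIR10.1, in which 31416 identifiers were found by locus and 2717 were not. Antisense overlap is the share of a gene's exon length under exons of the other strand. Families were set by keywords in the annotated product. Paralogues were found with blastp 2.17.0 (e-value 1e-05, at least 40% identity over at least 50% of the shorter protein). Tables and plots used Python 3.11.15, pandas 2.3.3 and matplotlib 3.10.9.

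The members, lists and named genes were chosen with earlier results of these data known. Named were the 12 largest ratios to Col-0, the 6 highest levels, the called members farthest from each mid-parent or between hybrids (up to 5 a direction), members of families with 2 or more, up to 8 with the highest antisense partners, and 3 on each side of the threshold. Further pairs, paralogues and neighbours were named after their values were seen. The alternatives tried were other thresholds, pseudocounts, filters, scalings, Col-0 libraries, mid-parents and a replicate block, and leaving out each library.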

Additional observations from a re-analysis of the deposited data

Results flagged for a closer look

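In Col-0, AT1G63540 was at 0.02 FPKM in replicate 3 and listed at 0 in the other Col-0 libraries, so replicate 3 stood apart from its group. With the others at 0, any value above 0 would stand apart, and the difference is small beside the 7 FPKM or more in each accession library.

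The deviation from the mid-parent differed between the hybrids for AT4G37553, by log2 1.87 (limma adjusted p = 0.012), with the Col-0×Per-1 hybrid farther up. The same difference for AT5G45472 was log2 1.59 (limma adjusted p = 0.00498). Both are lncRNAs with a large antisense overlap. The strand and the allele behind these reads were not tested.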

How the results depend on the processing

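The rule gave 71 genes at a fold of 2, 22 at a fold of 5, 65 at a minimum of 1 FPKM, 14 at a minimum of 10 FPKM and 72 with only Col-0 replicates 1 and 2, and between 43 and 51 with each library left out. Members below the mid-parent in Col-0×Aa-0 numbered 14 with only Col-0 replicates 1 and 2, and between 3 and 9 with each library left out. The replicate numbers did not pair the libraries in a consistent way (10 correlations between groups of the difference between replicates 1 and 2, -0.585 to 0.369). Among Col-0, Per-1 and Col-0×Per-1 the correlations were 0.292 to 0.369. Between each of these and Col-0×Aa-0 they were negative, at -0.367, -0.438 and -0.585. Those with Aa-0 were between -0.125 and 0.079. With the number as a replicate block, members below the mid-parent in Col-0×Aa-0 numbered 13. In Col-0×Per-1 the count below the mid-parent was between 6 and 16 with each library left out. The count above it was 0 with a pseudocount of 0.1, without the filter, with eBayes without a trend and with only Col-0 replicates 1 and 2, 3 with only replicates 3 and 4, 16 with a mid-parent from mean log2 values (by construction a lower mid-parent), and 0 to 2 with each library left out. With that mid-parent 6 single results changed sign: in Col-0×Aa-0 AT4G37553 was at 0.0944 and AT5G04380 at 0.93, and in Col-0×Per-1 PCR1 (AT1G14880) was at 0.97, AT1G63540 at 0.60, AT3G61030 at 0.91 and AT4G07868 at 0.88. With a pseudocount of 0.1, 4 members were higher in Col-0×Per-1 than in Col-0×Aa-0 and 1 had a larger deviation. With each library left out, higher members between hybrids numbered 2 to 7, lower ones 3 to 5, and larger deviations 0 to 3. Members above Col-0 numbered 20 to 26 and those below Aa-0 23 to 32 in Col-0×Aa-0, and those above Col-0 23 to 28 and below Per-1 23 to 28 in Col-0×Per-1. In Col-0×Per-1 the median position of genes with a large overlap was 5.09% with median-ratio scaling, 1.83% with only Col-0 replicates 1 and 2, 1.80% with only replicates 3 and 4, and that of the others was 54.4% with median-ratio scaling. Within a window of 20 genes 3 pairs of members were neighbours. Of the single-gene results under all settings, 6451 kept direction and side of the threshold, 96 became called, 293 were no longer called and 6 reversed. The causes were not tested. With 2 libraries in 4 of the 5 groups and depth unknown, low levels such as those under 1 FPKM are imprecise.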
